A study of Saccharomyces cerevisiae with 51 samples.

Results

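The regions described here are 1010 bins of 100 bp in which the RNA signal of *sub1*Δ budding yeast was lower than that of wild type in both untreated pairs of libraries. They were chosen by those values alone: a log2 difference (*sub1*Δ minus wild type, after adding 1 to each signal) of −1 or less in the pair without α-factor and in the pair in fresh medium, with a wild-type signal of at least 100 in both. Of 120795 bins listed in any RNA library, 56379 reached that minimum, and 1.81% of these met the rule, a share that still counts 11 bins at *SUB1* itself, which were dropped. Adjoining members merged into 226 runs.

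The series combined a screen of yeast deletion mutants with RNA-Seq of polyA-enriched RNA and ChIP-Seq of Sub1, and asked how Sub1 affects transcription in vegetative growth, in the mating response and under high osmolarity. The RNA-Seq compared a *sub1delta::kanMX* strain (yAS395) with a wild-type strain (yAS418). Both carried *lys2delta0*, *ura3delta0*, *his3delta1*, *met15* and a p*FUS1*-GFP reporter with *LEU2* in place of *BAR1*, so neither makes the protease that degrades α-factor, and each strain is 1 spore-derived isolate. Each strain gave 4 libraries, grown without α-factor (no treatment), with 10 nM α-factor for 45 min, in fresh SC medium, or in fresh SC medium with 1 M sorbitol. For the wild-type libraries in fresh medium and sorbitol the labels give 45 min, and for the *sub1*Δ ones no time is labelled. The study's methods state 45 min for both media without naming a strain, after cells were spun down and resuspended. ChIP-Seq used a Sub1-3HA strain (yAS420) with the same reporter and *leu2delta0* and an untagged reporter strain (yAS38) that lacks the *lys2* allele. Every condition had 1 library, so no difference below has a replicate check or a p-value, and the 95% intervals given are exact binomial (Clopper-Pearson) intervals of read counts that cover counting error only. They would be too narrow if a read that crosses 2 bins was counted in both. In these bulk cultures, fewer cells that express a gene and less RNA per cell cannot be told apart.

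Sub1 is the yeast relative of the human coactivator PC4, a protein that binds single-stranded DNA and works with the general transcription machinery and RNA polymerase II at promoters and along genes. Yeast growing on glucose keeps the genes for storage carbohydrates, high-affinity hexose uptake and respiration low, and raises them as glucose runs down or under stress. Glycogen and trehalose are the main storage carbohydrates of this yeast, and their enzymes are made in a coordinated way.

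The libraries held 28754973 to 39497371 reads (RNA) and 24964958 to 48775730 reads (ChIP), as recovered from values that were whole multiples of the smallest value in each library. Over 9 bins at *SUB1* (chrXIII:348700-349500), the 4 *sub1*Δ libraries had 2 to 4 reads and the 4 wild-type libraries 3493 to 4409, as their labels say. The bins are in the sacCer2 build. Genes were named by position from an annotation of another build (R64), used for names only, after the RNA signal had been found to lie on its genes within 25 bp in all 118 windows of 100 kb on 15 chromosomes. On chromosome XI the offset ran from 0 to 375 bp, so a bin there was named only where the name held over that range. The counting of strands is not given in the sources used here, so an overlapping antisense transcript cannot be told apart from the gene.

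The members lay on all 16 nuclear chromosomes, with 216 on chromosome IV, 129 on XIII and 1 on III. They formed blocks the length of transcripts: 38 runs of 10 or more bins held 628 of the 1010 bins (62.2%), the longest had 30 bins, and 106 runs were single bins. A total of 969 bins fell in 190 runs that could be named, at 99 genes. Another 35 bins in 30 runs were left unnamed, because a small shift in position gave another gene or none. The last 6 bins were outside genes. Inside reading frames lay 750 members (74.3%), near the 75.2% of all bins at the minimum. A gene with at least 3 members inside its reading frame is called a member gene below. There were 64 such genes, and in 28 of them every bin inside the frame was a member.

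**Figure D1:**
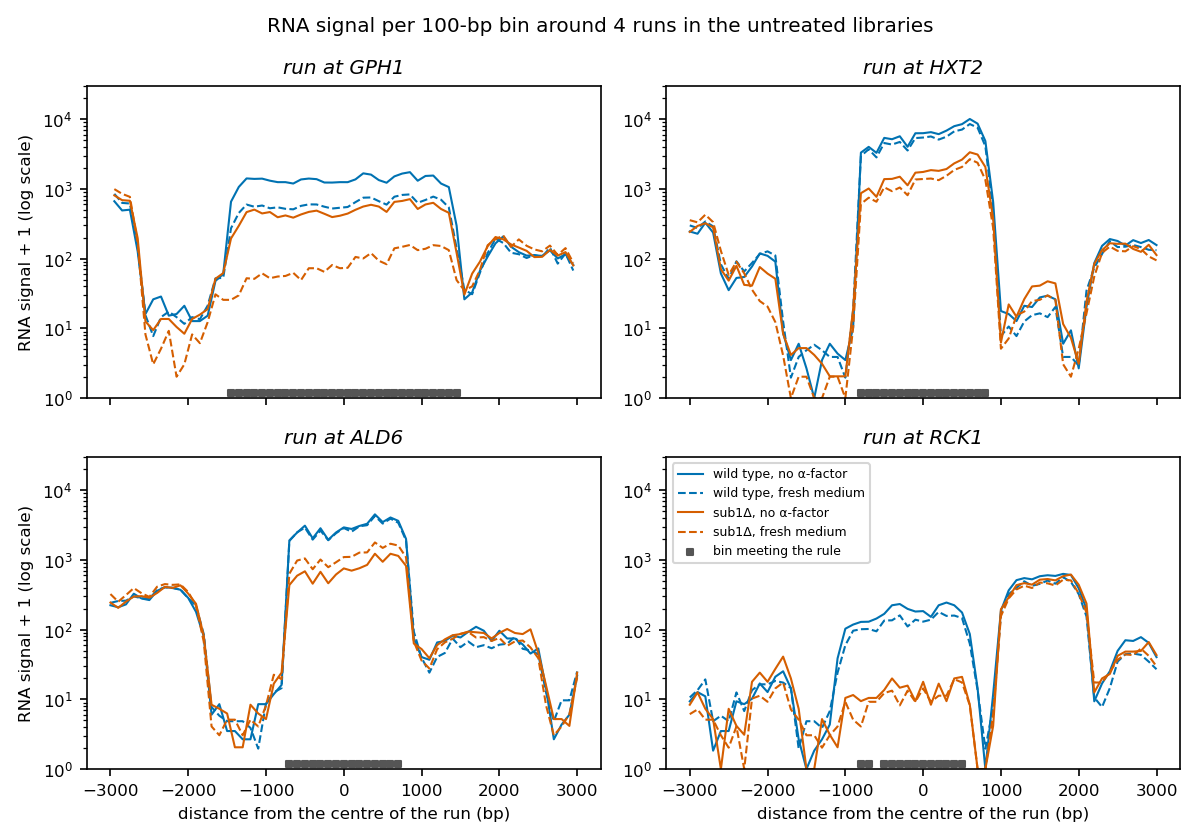
RNA signal per 100-bp bin (plus 1, log axis) against distance from the centre of the run, for the longest runs at *GPH1*, *HXT2*, *ALD6* and *RCK1*, in the untreated libraries of wild type (blue) and *sub1*Δ (orange), without α-factor (solid) and in fresh medium (dashed). Grey squares mark the members, over which *sub1*Δ lies below wild type along the whole run. Some bins with less signal beside the runs at *HXT2*, *GPH1* and *RCK1* were also lower in *sub1*Δ without meeting the rule. At *RCK1* the bin at −900 bp failed only the minimum. It had 117.3 in wild type and 10.5 in *sub1*Δ without α-factor, and 95.6 and 4.11 in fresh medium.

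The values that chose the members are given as a description. The median signal of the 1010 bins in wild type was 649.7 without α-factor and 391 in fresh medium. For all bins at the minimum it was 230.4 and 213. The rule used these libraries, so this gap is partly set by the choice. In the wild-type libraries that the rule did not use, the members' medians were 428.6 with α-factor and 448.4 in sorbitol. All bins at the minimum had 210.7 and 208.9 there. In *sub1*Δ the members' medians were 251 without α-factor and 93.6 in fresh medium. The median log2 difference was −1.35 without α-factor (lowest −4.70) and −2.00 in fresh medium (lowest −4.63). At the edge of the rule, a bin on chromosome VI had −1.0001 without α-factor and was in, and a bin of *GUT2* had −0.9988 and was out. In fresh medium a bin of *YGP1* had −1.0049 and was in, and a bin of *KGD1* had −0.9993 and was out. Bins that failed only 1 condition numbered 1094 for the log2 limit without α-factor, 195 for that in fresh medium, and 4 and 130 for the minimum signal in the same libraries.

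Genes of glycogen and trehalose metabolism made up many of the longest runs. Of 16 genes of that list at the minimum in both untreated wild-type libraries, 9 had a log2 ratio of −1 or less in both untreated pairs, as did 58 of 3825 genes in all (1.52%). These 9 were *GSY1* and *GSY2* (glycogen synthases), *GLC3* (branching enzyme), *GPH1* (glycogen phosphorylase), *GDB1* (debranching enzyme), *GAC1* (which directs the Glc7 phosphatase to glycogen synthase), *PGM2* (phosphoglucomutase), *UGP1* (UDP-glucose pyrophosphorylase) and *TPS2* (trehalose-6-phosphate phosphatase). Both the enzymes that build glycogen and those that break it down were among them. No gene of the list was higher by 1 in both pairs. The counts in both untreated pairs, here and for the lists below, use the values that chose the members. The lists were picked with earlier results of these data known. These counts are therefore a description and no independent evidence.

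*GPH1* held the longest run, 30 bins at chrXVI:861200-864100. Its mean signal per bin in wild type was 1387 without α-factor, 1252 with it, 633 in fresh medium and 480.1 in sorbitol, and in *sub1*Δ 507, 637, 93.3 and 449. The *sub1*Δ library in fresh medium stood far below the other 7. The log2 ratio was −1.45 (95% interval −1.48 to −1.42) without α-factor, −2.76 (−2.83 to −2.70) in fresh medium, −0.97 (−1.003 to −0.947) with α-factor and −0.10 (−0.14 to −0.06) in sorbitol. *GSY1*, with 22 bins at chrVI:174300-176400, had 1580.0, 1072, 747 and 482 in wild type and 679, 634, 108 and 539.9 in *sub1*Δ in the same order. *GLC3* (21 bins, chrV:133100-135100) had 1459, 1073, 636 and 462 in wild type and 561, 567, 101 and 535 in *sub1*Δ. All 3 genes shared one shape, with the lowest *sub1*Δ signal in fresh medium and near-equal strains in sorbitol.

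*TPS2* carried 28 bins at chrIV:593800-596500. Its mean signal was 2367, 1356, 1285 and 1795 in wild type and 1070.0, 847, 342 and 1336 in *sub1*Δ. It was lower in *sub1*Δ in all 4 pairs, with log2 ratios of −1.15, −1.91, −0.68 and −0.43 for no α-factor, fresh medium, α-factor and sorbitol. *TSL1*, a regulatory subunit of the same trehalose synthase complex, had only 4 of 31 bins in the set, with −0.91 and −1.76 in the untreated pairs. *GDB1* and *PGM2* had log2 ratios of 0.57 and 0.39 in sorbitol, so their sign there was opposite to that in the pairs that chose them.

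Hexose uptake and glucose sensing came next. Of 15 genes of that list at the minimum, 7 were lower by 1 or more in both untreated pairs, beside 1.52% of all genes. They were the transporters *HXT2*, *HXT4*, *HXT6* and *HXT7*, the hexokinase *HXK1*, *MTH1* (a co-repressor of *HXT* genes that responds to glucose) and *MIG2* (a glucose-dependent repressor). *HXT3*, a low-affinity transporter, had 4 members of 15 bins and log2 ratios of −0.92 and −0.94, and *MIG1* had 7 of 13 with −0.997 and −1.59.

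*HXT2* (17 bins, chrXIII:288100-289700) had a mean signal of 6331, 6201, 5393 and 4993 in wild type and 1848, 2889, 1419 and 1526 in *sub1*Δ, in the order no α-factor, α-factor, fresh medium, sorbitol. Every *sub1*Δ library lay below every wild-type library. The log2 ratio stayed low in all pairs, at −1.78 and −1.93 untreated, −1.10 (−1.12 to −1.09) with α-factor and −1.71 (−1.73 to −1.69) in sorbitol. *HXT4* (17 bins, chrVIII:287200-288800) differed in the osmotic pair, with 4811, 3788, 3334 and 756 in wild type and 1747, 2190, 551 and 622 in *sub1*Δ. There the wild-type signal in sorbitol was itself low, and the ratio was −0.28. *HXT6* and *HXT7* had nearly the same values (6955 and 6974 in wild type without α-factor, 2060 and 2071 in *sub1*Δ). They are near-identical copies that may share reads, so which of them differed is uncertain.

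*MTH1* (17 bins, chrIV:1014200-1015800) had 1231, 962, 776 and 769.9 in wild type and 343, 410.0, 73.9 and 318 in *sub1*Δ. The wild-type libraries were all above the *sub1*Δ ones, and the log2 ratio was −1.84, −1.23, −3.39 and −1.27. *HXK1* (17 bins, chrVI:253500-255100) had 4938, 4392, 2692 and 3533 in wild type and 1623, 2157, 337 and 2155 in *sub1*Δ. Its ratio of −2.998 in fresh medium was among the lowest of the set and shrank to −0.71 in sorbitol.

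For the use of acetate and ethanol, 3 of 9 genes were lower in both untreated pairs, beside 1.52% of all genes. They were *ALD4* and *ALD6* (the mitochondrial and cytosolic aldehyde dehydrogenases that make acetate) and *ADR1* (an activator of ethanol-use genes). *ALD6* (15 bins, chrXVI:432600-434000) had 3002, 2903, 2878 and 1747 in wild type and 765, 1269, 1171 and 1121 in *sub1*Δ. Unlike most members it was lowest in *sub1*Δ without α-factor, at a log2 ratio of −1.97 (−2.00 to −1.94) against −1.30 (−1.32 to −1.27) in fresh medium. Of 64 member genes, 55 had the lower ratio in fresh medium, and the 9 that did not were *ADR1*, *ALD6*, *DSE1*, *PDR15*, *PHM7*, *RCK1*, *VHR1*, *YGP1* and *YNL195C*. The rule used both ratios, and the share of all genes with the lower ratio in fresh medium was not counted. Of 28 listed genes of the TCA cycle and respiration, 2 were lower by 1 in both untreated pairs, beside 1.52% of all genes. They were *ISF1* and *RGI1* (both tied to respiratory growth). The list had medians of −0.39 and −0.53 beside 0.02 and 0.09 for all genes. *RGI1* had only 2 members inside its frame of 3 bins, with a ratio of −1.11 without α-factor and −3.56 in fresh medium.

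Among stress-linked transcription factors, 6 of 16 were lower in both untreated pairs, beside 1.52% of all genes. They were *MSN4* (an activator of the general stress response), *GIS1*, *USV1*, *XBP1* (a stress-induced repressor), *CIN5* (a bZIP factor) and *HAP4* (the regulatory subunit of the activator of respiratory genes). *USV1* (14 bins, chrXVI:115200-116500) had a mean signal of 2503, 1105, 1308 and 1318 in wild type and 743, 516, 159 and 775 in *sub1*Δ. *HAP4* (20 bins, chrXI:231600-233500) had 1335, 854, 919 and 849 in wild type and 520.1, 455, 122 and 441 in *sub1*Δ. Both had their lowest value in *sub1*Δ in fresh medium, at ratios of −3.04 and −2.91.

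Of 25 heat shock and stress-protective genes, 2 were lower by 1 in both untreated pairs, beside the 1.52% of all genes given above. They were *CTT1* (cytosolic catalase) and *HSP12* (a small membrane-protecting heat shock protein). The list had medians of −0.37 and −0.50. The *HSP12* run (6 bins, chrVI:107200-107700) had 4545, 1311, 3311 and 24416 in wild type and 932, 408, 475 and 16912 in *sub1*Δ. In both strains the sorbitol library had by far the most signal, and the strains differed least there. A list of genes that the study itself tabulated as lower in *sub1*Δ, chosen on these samples and therefore no independent evidence, had 18 of its 18 genes at the minimum lower in both pairs.

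The remaining member genes had varied roles. *FMP45* and *YNL194C* encode related membrane proteins of the cell cortex, and *LSP1* a core component of eisosomes, the furrows of the plasma membrane. *YNL194C*, in a run of 23 bins (chrXIV:271500-273700) that also covered *YNL195C*, had 1771, 824, 686 and 1759.9 in wild type and 336, 154, 77.1 and 925 in *sub1*Δ. Its log2 ratio with α-factor, −2.42 (−2.52 to −2.33), was as low as without it, −2.40 (−2.46 to −2.33). *FMP45* (13 bins, chrIV:60600-61800) had 891, 285, 419 and 2274 in wild type and 171, 128, 74.9 and 1224 in *sub1*Δ. Both genes were lower in *sub1*Δ in all 4 pairs, and in both strains each had more signal in sorbitol than in fresh medium. *RPM2* (the protein subunit of mitochondrial RNase P), *COS111*, *MAL31* (a maltose permease), *GUT2* (mitochondrial glycerol-3-phosphate dehydrogenase), *MSC1* and *MRK1* (a GSK-3 kinase homolog) each had 13 or more members. *COS111* and *MAL31* belong to gene families with close copies, so their reads may be shared.

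*RCK1*, a protein kinase linked to oxidative stress, had the lowest ratios of the member genes in both untreated pairs and in sorbitol. Its members (11 bins at chrVII:207500-208500 and 2 at chrVII:207200-207300) gave a mean gene signal of 187, 111, 133 and 129.9 in wild type and 12.6, 24.4, 10.1 and 16.3 in *sub1*Δ. Every *sub1*Δ library was below 25 and every wild-type library above 100, and the log2 ratio was −3.89 (−4.13 to −3.66) without α-factor, −2.19 (−2.37 to −2.01) with it, −3.72 (−3.99 to −3.46) in fresh medium and −2.995 (−3.22 to −2.78) in sorbitol. The next lowest runs were single bins or short runs at *PHM7* and *MRK1*, and the 10-bin run at *YKR075C* (−1.75 and −3.40).

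**Figure D2:**
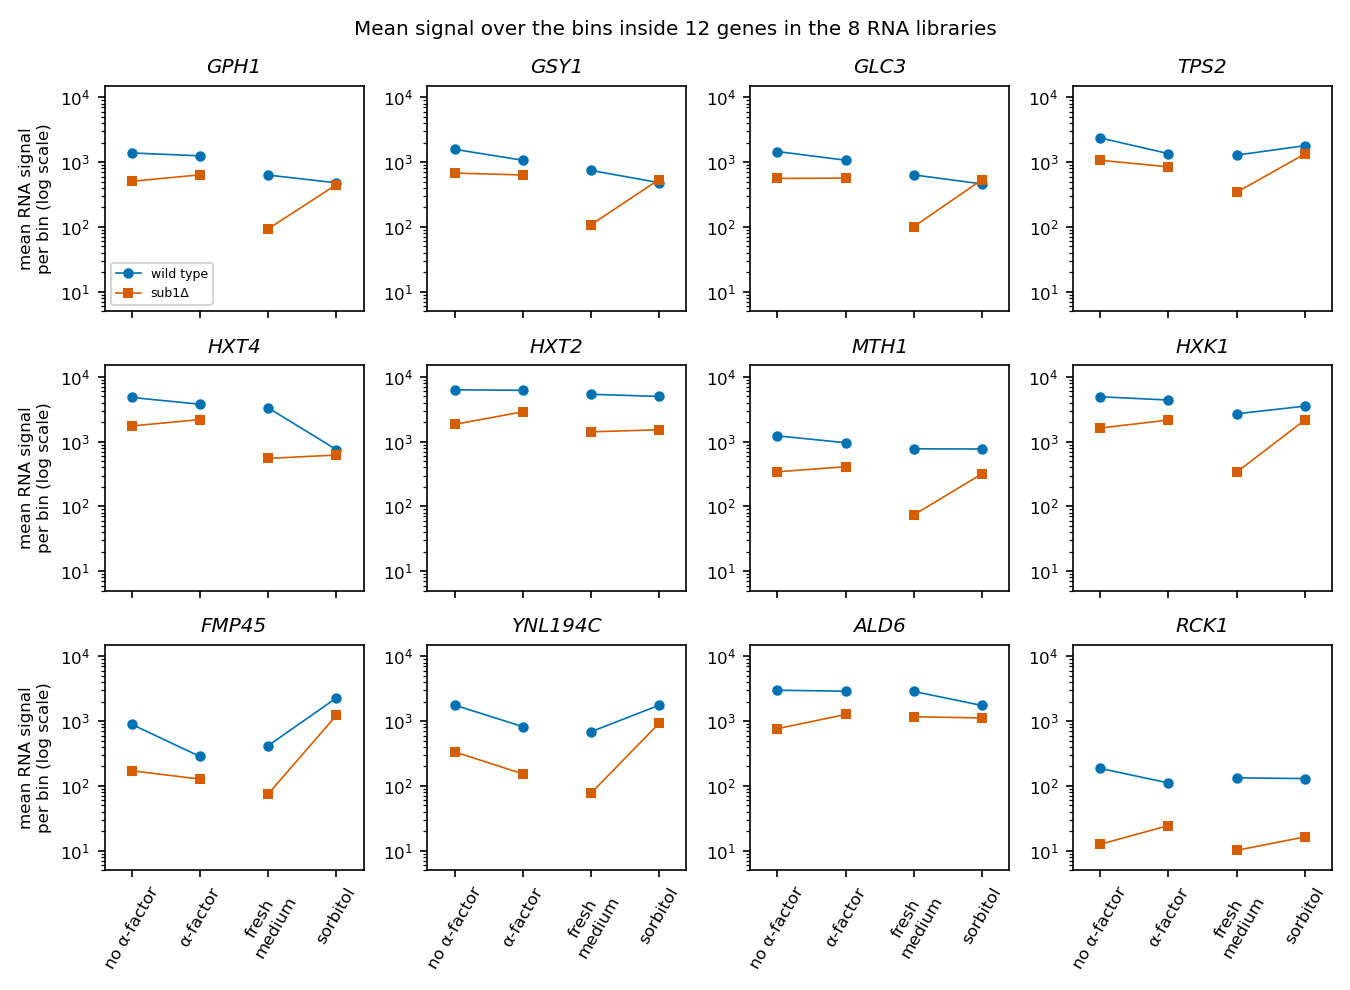
Mean RNA signal per bin inside 12 member genes (log axis) in the 8 libraries, 4 per strain, with lines joining each control to its treated library. *HXT2*, *MTH1*, *ALD6* and *RCK1* stay apart between wild type (circles) and *sub1*Δ (squares) in all 4 conditions, whereas *GPH1*, *GSY1* and *GLC3* meet in sorbitol.

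The pairs with α-factor and in sorbitol were not used to choose the members. With α-factor, 969 of the 1010 bins reached 100 in wild type. Of these, 280 (28.9%) had a log2 difference of −1 or less, beside 0.636% of all bins, and 961 were below 0 (99.2%), beside 40.0% of all bins. The median was −0.77 against 0.07 over all bins. Without a minimum, 291 of the 1010 were at −1 or less. In sorbitol, 954 bins reached 100 in wild type, and 164 (17.2%) were at −1 or less, beside 1.00% of all bins. There 788 (82.6%) were below 0, beside 32.8%, and the median was −0.45 against 0.13 over all bins. Without a minimum the count was 171. With each library divided by its median ratio to the mean of all RNA libraries, it was 270 of 963, beside 1.73% of all bins. Among those at the minimum no member was higher by 1 or more in either pair, beside 0.526% of all bins with α-factor and 2.14% in sorbitol. Most members thus kept their direction in both treatments. Their medians were nearer 0 than in the untreated pairs. The rule required −1 or less in the untreated pairs, so this gap is partly set by the choice. The treated pairs come from the same 2 strains, so they repeat the comparison of strains in other libraries and not in other isolates.

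**Figure D3:**
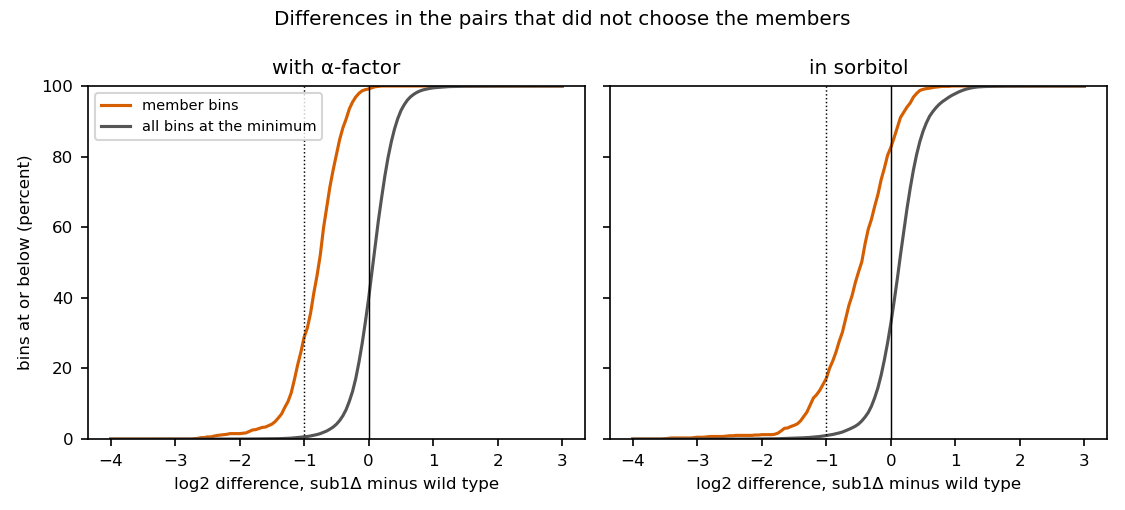
Cumulative share of bins (percent) at or below each log2 difference (*sub1*Δ minus wild type, signal plus 1) with α-factor and in sorbitol, for the members (orange) and all bins at 100 or more in the wild-type library (grey). Members lie to the left in both panels, with 28.9% and 17.2% at −1 or less in the signal as deposited.

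By gene, all 62 member genes at the minimum with α-factor had a ratio below 0 (median −0.70, all genes 0.05), and 14 were at −1 or less, beside 0.571% of all genes. The 14 were *ALD6*, *CIN5*, *FMP45*, *FMP48*, *HXK1*, *HXT2*, *HXT6*, *HXT7*, *ISF1*, *MTH1*, *RCK1*, *USV1*, *YNL194C* and *YNL195C*. In sorbitol, 50 of 62 were below 0 (median −0.46, all genes 0.12) and 7 were at −1 or less, beside 0.570% of all genes. Those were *HXT2*, *HXT6*, *HXT7*, *MTH1*, *PHM7*, *RCK1* and *YKR075C*. These counts depended on the scaling. After each library was divided by its median ratio to the mean of all RNA libraries, 23 member genes were at −1 or less with α-factor (median −0.83, 0.951% of all genes) and 14 in sorbitol (median −0.67, 1.27% of all genes). In all 4 pairs, 5 member genes were at −1 or less, *HXT2*, *HXT6*, *HXT7*, *MTH1* and *RCK1*, and all but *RCK1* belong to the hexose list. With that scaling there were 11, these 5 and *FMP45*, *HAP4*, *LEE1*, *YGP1*, *YNL194C* and *YNL195C*. *HXT6* and *HXT7* may share reads, so they may stand for 1 gene in these counts and in those of the hexose list. The share of all genes below 0 in a treated pair, or at −1 or less in all 4, was not counted. The glycogen and trehalose list had a median of 0.16 in sorbitol with none of 16 genes at −1 or less, and the hexose list −0.29 with 4 of 14. Scaling moved these medians to −0.05 and −0.50, so that of the glycogen and trehalose list changed sign, and left both counts as they were. The 12 genes above 0 in sorbitol included *GDB1*, *GLC3*, *GSY1*, *PGM2*, *TSL1* and *UGP1* of the glycogen and trehalose list, and *CIN5* and *MPF1*. After the scaling, which shifted the sorbitol ratios by −0.21, *GSY1*, *UGP1*, *ALD3*, *OM45*, *RPI1* and *YMR196W* were no longer above 0 and *GLC3* was at 0.0001.

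**Figure D4:**
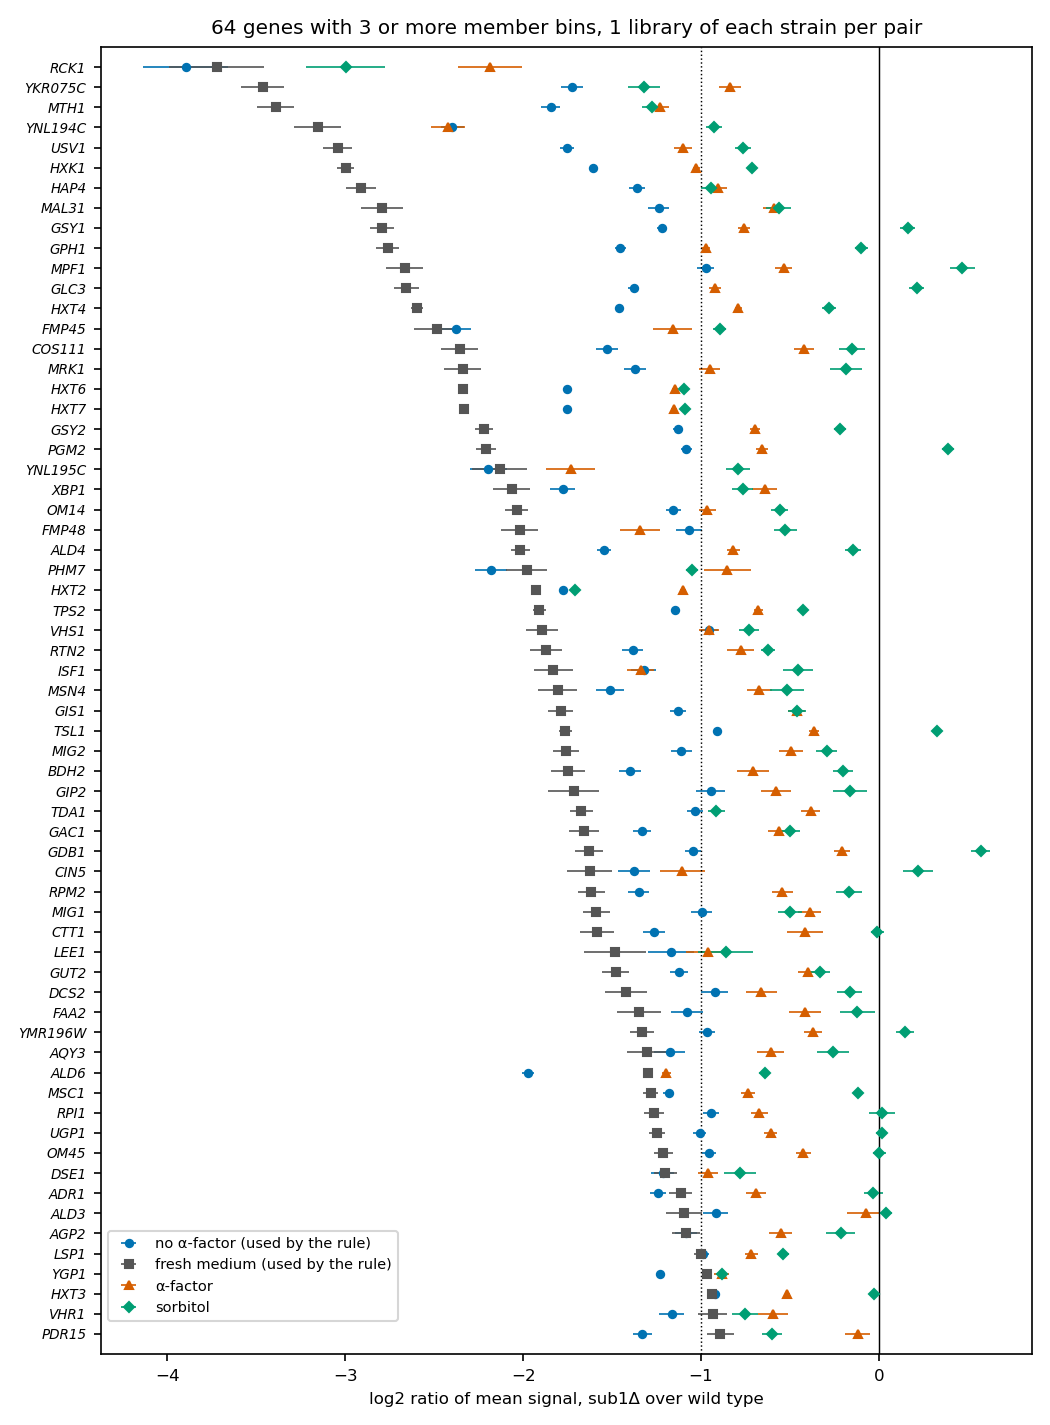
Log2 ratio of mean signal (*sub1*Δ over wild type) of the 64 member genes in the 4 pairs of libraries, ordered by the ratio in fresh medium. Bars are 95% intervals of counting error, and the dotted line is −1. In the sorbitol pair the genes ran from −2.995 (*RCK1*) to 0.57 (*GDB1*). The rule held the untreated pairs near or below −1, so the pairs cannot be compared in spread.

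Within a strain, levels of the members also moved between conditions. These responses share the untreated libraries that chose the members, so they are given side by side with no reading of their difference. In wild type the median log2 change of the 64 member genes was −0.52 with α-factor (all genes −0.15), 0.00 in sorbitol against fresh medium (−0.05), and −0.79 in fresh medium against no treatment (−0.03). In *sub1*Δ it was −0.02 with α-factor (all genes −0.12), 1.57 in sorbitol (0.04), and −1.19 in fresh medium against no treatment (0.01). In *sub1*Δ, 46 member genes were higher in sorbitol than in fresh medium by 1 or more, and only *ALD6*, *DSE1* and *RPI1* were below 0. In wild type 8 were higher by 1 or more, *ALD3*, *CTT1*, *FMP45*, *MSC1*, *PHM7*, *RTN2*, *YNL194C* and *YNL195C*, and *DSE1*, *HXT4*, *MRK1* and *RPI1* were lower by 1 or more. With α-factor no member gene was higher by 1 in either strain, and 13 in wild type were lower by 1 or more. The share of all genes past these limits was not counted, so whether these counts are unusual cannot be told.

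In fresh medium the difference between the strains was not even along most member genes. The reading frames of 49 member genes of 10 or more bins were split at the middle. In fresh medium 47 of them had a lower ratio on the 5′ side than on the 3′ side, beside 75.7% of 1849 genes, and the median difference between the sides was −0.21 (all genes −0.06). *MRK1* had the widest gap, −3.50 on the 5′ side and −1.54 on the 3′ side. *YMR196W* had −1.95 and −0.92, and *GPH1* −3.16 and −2.51. The exceptions were *BDH2* and *TDA1*. Without α-factor 39 of 49 were lower on the 5′ side, beside 82.4% of all genes, and with α-factor 32, beside 59.4%. In sorbitol 24 were, beside 66.9%. The split was chosen after the values were seen, and the fresh-medium and no-α-factor pairs chose the members, so these counts are a description only.

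Sub1 occupancy was measured by ChIP-Seq in data that the choice of members did not use. The ratio of Sub1-3HA to untagged signal was taken after dividing each library by its median bin. For 1 pair of libraries the labels conflict. The titles and descriptions name a no-sorbitol control and a 1 M sorbitol library, each for 5 min, while their treatment fields state the reverse. Titles and descriptions were followed, and the 2 libraries are called by title. The untagged strain was grown without treatment only, and per the study's methods the tagged strain kept only some Sub1 function. The α-factor library was treated with 10 nM for 30 min.

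Most members had little Sub1 signal. Their median ratios were 0.99, 1.05, 0.95 and 0.95 in the no-sorbitol, sorbitol, no-α-factor and α-factor libraries. All bins at the minimum had 0.96, 0.99, 0.96 and 0.97. The short runs were uneven in the no-sorbitol library. Some had high ratios, such as 28.1 at chrIV:507900, 23.9 at chrXI:334600, 12.7 at *MDH2* and 11.5 at *HOR7*. Others did not, such as 0.79 at chrVII:432000 in *MIG1*. Bins at 2 or more times untagged numbered 140 of 1010 in the no-sorbitol library (13.9%, all bins 9.14%), 45 in sorbitol (4.46%, all bins 0.794%), 103 without α-factor (10.2%, all bins 7.86%) and 108 with it (10.7%, all bins 8.69%). The run at *ALD6* had a mean ratio of 3.60 in the no-sorbitol library and was the exception among the long runs, with *GPH1* at 1.06, *HXT2* at 1.09 and *RCK1* at 0.93.

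Upstream, the largest ratio in the 500 bp before the reading frame was compared for 60 member genes, leaving out the 4 on chromosome XI. Without α-factor 39 of the 60 (65.0%) reached 2, beside 67.8% of 3903 genes, and with α-factor 46 (76.7%), beside 74.0%. In those libraries the member genes had median ratios of 2.23 and 2.55, and all genes 2.37 and 2.56. In both, Sub1 signal upstream of the members was close to that of other transcribed genes. In the no-sorbitol library 53 (88.3%) reached 2, beside 74.5%, with a median of 3.18 against 2.54. In the sorbitol library 19 (31.7%) did, beside 8.58%, with a median of 1.74 against 1.32. With the mean over the 500 bp in place of the largest bin, only 3 member genes did in sorbitol, beside 3.72%. The 7 that did not reach 2 in the no-sorbitol library were *FAA2*, *GDB1*, *GIP2*, *HXT6*, *MPF1*, *MRK1* and *YNL195C*.

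Gene by gene, the upstream ratio was higher in the no-sorbitol than in the no-α-factor library for 59 of 60 member genes, beside 73.8% of all genes, with a median quotient of 1.37 against 1.07. *HXT3* was the exception. With α-factor against without, 51 of 60 were above 1, beside 75.7%, with medians of 1.14 and 1.09. The quotient of no sorbitol to no α-factor reached 2 at *ALD4*, *ALD6* and *HXK1*, beside 0.179% of all genes. At *ALD6* the ratio was 13.2 without α-factor, 16.2 with it, 30.9 in the no-sorbitol library and 3.61 in sorbitol. At *HXK1* it was 2.83, 4.05, 9.25 and 2.60 and at *ALD4* 2.10, 2.38, 6.63 and 1.47. These 3 genes were lower in *sub1*Δ by log2 ratios of −1.97, −1.61 and −1.55 without α-factor and −1.30, −2.998 and −2.02 in fresh medium. *HXT2* had 4.45, 6.95, 8.11 and 1.37 and *DSE1*, a gene of daughter-cell separation, 7.96, 14.7, 9.14 and 1.93.

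The sorbitol library had lower ratios than the no-sorbitol one at most genes, with a median quotient of 0.52 over the members and 0.54 over all genes. The quotient was above 1 at 4 of the 60, beside 3.31% of all genes. *LSP1* (5.71), *FMP48* (5.12), *TPS2* (4.22), *ALD6* (3.61) and *FMP45* (3.13) had the highest upstream ratios in sorbitol among the member genes. Upstream of *HSP12*, which has only 1 bin clearly inside its frame and is not a member gene, the ratio was 9.13 in sorbitol and 4.86, 1.85 and 1.56 in the no-sorbitol, no-α-factor and α-factor libraries. *RCK1*, the gene with the lowest RNA ratio, had 1.93, 2.26, 2.91 and 1.14 without α-factor, with α-factor, without sorbitol and in sorbitol, beside medians of all genes of 2.37, 2.56, 2.54 and 1.32.

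**Figure D5:**
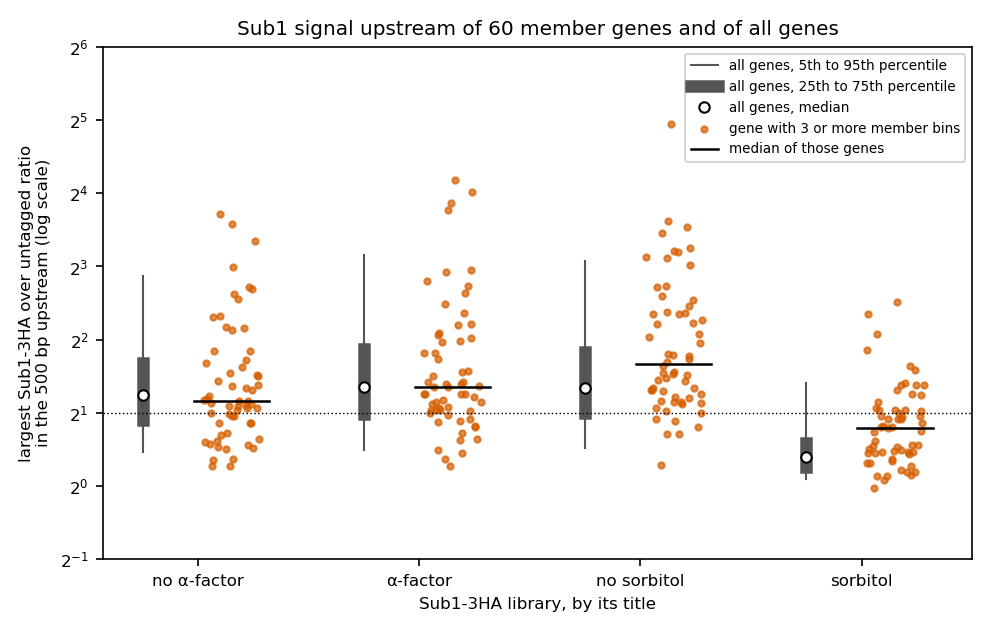
Largest Sub1-3HA over untagged ratio in the 500 bp upstream (log axis) in 4 tagged libraries, for 60 member genes (orange points, black line at their median) and for all 3903 genes (grey, median and percentiles). The median of the members was above that of all genes in the no-sorbitol and sorbitol libraries (3.18 against 2.54 and 1.74 against 1.32). It was close to that of all genes in the other 2. Single members lay on both sides of the median of all genes. With the mean over the 500 bp, the excess of members reaching 2 in sorbitol was lost.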

How the data were processed

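RNA and ChIP reads (single, 50 bases) had been mapped by the authors with Bowtie2 to sacCer2. The deposited files give the signal per 100-bp bin, which the authors scaled so that every file of an assay has the same total. All values were whole multiples of the smallest, taken as 1 read. The tool that made the bins is not given in the sources used here. Bins not listed in a file were set to 0. The members, gene lists and tests were chosen with earlier results of these data known.

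Ratios of genes are of mean signal over the bins inside the reading frame with 50 bp of play (400 bp to the right on chromosome XI). A pseudocount of 1 was used for bins and none for genes. The genes named are up to 25 with 3 or more member bins (most bins first), members of the fixed lists, the lowest runs, genes at the thresholds and *SUB1*. Member genes beyond the 25 with most bins were named where a count or an extreme turned on them, after their values were seen. ChIP ratios used the median bin of each library. The rule was run on simulated bins with planted drops and counting noise only. That checks the code and cannot show how often single libraries meet the rule without a strain effect. Screen counts were not used. Python 3.11.15, numpy 2.4.6, pandas 2.3.3, scipy 1.17.1 and matplotlib 3.10.9 were used. No sequences are shown.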

Additional observations from a re-analysis of the deposited data

How the results depend on the processing

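Each condition had 1 library, so nothing here measures the spread between cultures. No paired analysis was possible because each RNA and ChIP group had 1 library, so the groups compared shared only the number 1. The 1010 members numbered 956 with a pseudocount of 10, 1194 and 747 with a minimum of 50 and 200, and 1088 with median scaling. With a limit of −1.5 there were 320 bins in 91 runs, and merging bins up to 300 bp apart gave 150 runs. Median scaling shifted the ratios by −0.02 without α-factor, −0.05 in fresh medium, −0.13 with α-factor and −0.21 in sorbitol, and gave 270 of 963 members at −1 or less in sorbitol (all bins 1.73%). The scaled counts of member genes were added after seeing the data. Of 58 genes lower in both pairs, 55 were also lower by the median over bins, and 161 genes were at −0.5 or less.

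ChIP counts moved most. With the authors' common total instead of the median bin, upstream ratios reached 2 at 35 member genes in the no-sorbitol library (all genes 40.8%), 20 without α-factor (32.9%) and 21 with it (33.9%). The common total lowers the sorbitol ratios too, as the median bin was 363 in that library and 392.6 in the untagged one. Their count is not given here. At 3 times untagged they numbered 31 (35.2%), 6 in sorbitol (4.10%), 18 (29.3%) and 21 (36.4%). With the mean over the 500 bp, an alternative chosen after seeing the data, there were 36 in the no-sorbitol library (46.0%), 3 in sorbitol (3.72%), 22 without α-factor (39.2%) and 28 with it (43.6%). So the excess in the sorbitol library was lost with the mean. Of 139 ratios at −1 or less among named genes, 137 stayed there by the median over bins and 139 with median scaling.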
